A study of Mus musculus with 4 samples.

Results

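The solute carriers (SLC) described here were the genes of the count matrix whose symbol has the plain family form *Slc*, a family number, the letter a and a member number, and which had at least 100 unique molecular identifiers (UMIs) over all cells of the 4 libraries. They were chosen by their summed UMIs, and by nothing else measured. This rule kept 168 of the 301 genes with such a symbol, out of 16892 genes in all. The remaining 133 fell below 100 UMIs, and 46 further genes with *Slc* or *Slco* symbols of another form are outside the rule. The 2 members nearest above the limit were *Slc2a12* (100 UMIs) and *Slc36a4* (103 UMIs), and the 2 genes nearest below it were *Slc25a15* (99 UMIs) and *Slc38a7* (97 UMIs). Since the same UMIs chose the members and give their levels by cell type and library, the levels below are a description with no test.

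The cells came from FVB/NJ male mice aged 10 to 12 weeks, untreated as far as the labels say. Epididymides of 4 mice were cut into caput, corpus, cauda and vas deferens, and the 8 pieces of each region were pooled into 1 droplet (10x) library. The libraries share these mice, and each is a region and a preparation at once, which cannot be told apart. The libraries held 1433 caput, 2325 corpus, 1616 cauda and 3506 vas deferens cells, with a median of 1433 to 2207 UMIs per cell.

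SLC proteins are membrane carriers that move ions, nutrients, metabolites and metals across the plasma membrane or an organelle membrane, most of them as exchangers, cotransporters or facilitators driven by existing gradients. In the epididymis, principal cells line the duct and take up and secrete solutes that set the fluid around sperm, while clear cells acidify that fluid. Basal cells lie under both, and smooth muscle wraps the duct and is thick in the vas deferens.

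A level is the number of UMIs of a gene per 1000000 UMIs of the cells considered (UPM), with 95% exact Poisson intervals in brackets where given. Intervals cover counting error only. The counts are 3′ tags and were not scaled by gene length, so levels are best compared between cells for a gene, and a comparison between genes is of UMIs and not of transcripts per length. A count of 3 UMIs was taken as the floor, which is 1.74 UPM in caput, 2.11 in corpus, 1.72 in cauda and 0.641 in vas deferens principal cells. Cell types were 7, those of the submitters' annotation with endothelial cells set apart from immune cells, and the annotation gave 34 populations. Of the marker lists, 6 of 9 principal, 5 of 5 clear, 3 of 4 basal, 4 of 4 stromal, 4 of 4 muscle, 4 of 4 endothelial and 5 of 5 immune markers were highest in the type they name. Across libraries, 43 barcodes occurred more than once (86 cells).

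The 168 members together took 5738 UPM [5690, 5786] in principal cells, 7088 in clear, 5741 in basal, 6742 in stromal, 7343 in muscle, 5564 in endothelial and 3656 [3502, 3815] in immune cells. The largest and the smallest of these sums thus differed by little over 2-fold. Depth moved with this sum outside principal cells: the 4 populations of at least 50 cells with the lowest median UMIs (low-UMI clear, basal and stromal cells and 1 of the 2 muscle populations) held 9912 to 10778 UPM, against 3704 to 7108 in the other 11. The part of depth in the levels of these populations was not tested.

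Principal cells were the cell type where the most members had their highest level. There were 46 such members (27.4%), beside 15.6% of the 11083 genes with at least 100 UMIs. Clear cells followed with 43 members (25.6%, beside 28.6% of all genes) and muscle with 30 (17.9%, beside 16.7%). Endothelial cells had 20 (11.9%, beside 12.4%), stromal cells 14 (8.33%, beside 11.2%), basal cells 11 (6.55%, beside 8.60%) and immune cells 4 (2.38%, beside 7.01%).

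**Figure D1:**
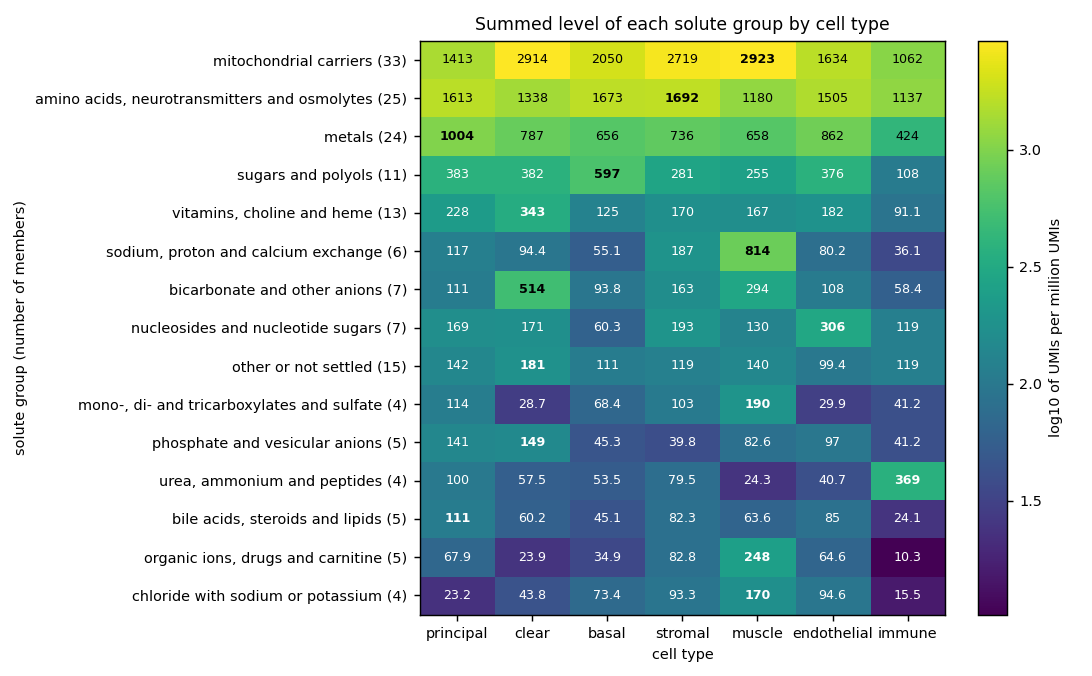
Summed level of each of the 15 solute groups (rows, with the number of members) in each of the 7 cell types (columns), in UMIs per 1000000 UMIs printed in the cells and colored on a log10 scale, with the highest type of each row in bold. Mitochondrial carriers lead in muscle at 2923 and in clear cells at 2914, while sodium, proton and calcium exchangers reach 814 in muscle against 187 or less elsewhere.

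By transported solute, the members fell into 15 groups, taken from the substrates for which each family is known. Muscle was the highest type for 5 groups, clear cells for 4, principal cells for 2, and basal, stromal, endothelial and immune cells for 1 each. Some of these leads were slight. Amino acid carriers were highest in stromal cells at 1692 UPM, with basal cells at 1673 and principal cells at 1613, and the ratio of stromal to basal was 1.01 [0.985, 1.04]. Mitochondrial carriers stood at 2923 in muscle and 2914 in clear cells, also not separated by counting error. Wider leads were those of the sodium, proton and calcium exchangers in muscle (4.36-fold over stromal cells [4.02, 4.72]), the peptide and urea carriers in immune cells (3.68-fold over principal cells [3.16, 4.28]), the organic ion and carnitine carriers in muscle (2.99-fold over stromal cells [2.62, 3.42]), the chloride cotransporters in muscle (1.80-fold over endothelial cells [1.40, 2.35]) and the anion exchangers in clear cells (1.75-fold over muscle [1.55, 1.97]). Each of these rested largely on 1 gene, since *Slc8a1* gave 52.3%, *Slc15a3* 80.9%, *Slc22a3* 63.2%, *Slc12a2* 85.0% and *Slc26a3* 83.8% of the UMIs of its group in that type. Metal carriers were highest in principal cells at 1004 UPM, with no gene above 14.8% of the sum. Their lead was slight, at 1.16-fold over endothelial cells [1.08, 1.26].

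A member was called restricted to a cell type when it had at least 20 UMIs there and a level 4 or more times that of each other type, with the other types raised to the floor. This held for 19 of 168 members (11.3%), beside 9.85% of all genes tested. At a 2-fold limit the shares were 36.3% of members and 24.3% of genes, and at an 8-fold limit 2.38% and 4.87%. At the 4-fold limit the share of members was near that of all genes, and which was higher depended on the setting. It was 9.52% beside 9.32% with at least 50 UMIs in the type, and 8.33% beside 9.65% without the corpus library. Muscle held 7 calls (background 1.38% of genes), principal cells 7 (2.26%), clear cells 3 (1.29%), stromal cells 1 (1.62%) and immune cells 1 (1.43%). Basal and endothelial cells held 0, with backgrounds of 0.641% and 1.23%. The median ratio of the highest to the next type was 1.57 over the members and 1.38 over all genes. The median summed UMIs were 421 over the members and 606 over all genes, and the part of this in the ratios was not tested.

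For orientation, the region around the start of a gene is shown for 3 abundant called members, 1 each from caput principal cells, clear cells and muscle. Each line is 250 bases before to 50 after the RefSeq start in GRCm38, on the gene's own strand. Capitals mark TATAAA (either strand, a TATA box core) and CACGTG (its own reverse complement, an E-box core). The *Slc38a5* window is chrX:8271131-8271430 (plus strand), that of *Slc26a3* is chr12:31437969-31438268 (plus strand) and that of *Slc8a1* is chr17:81738338-81738637 (minus strand).
Slc38a5: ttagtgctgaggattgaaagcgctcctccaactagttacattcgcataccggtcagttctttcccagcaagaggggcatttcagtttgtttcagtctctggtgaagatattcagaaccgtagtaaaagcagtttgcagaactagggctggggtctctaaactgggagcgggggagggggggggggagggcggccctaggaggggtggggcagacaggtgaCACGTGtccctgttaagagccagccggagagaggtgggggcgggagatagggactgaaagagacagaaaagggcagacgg
Slc26a3: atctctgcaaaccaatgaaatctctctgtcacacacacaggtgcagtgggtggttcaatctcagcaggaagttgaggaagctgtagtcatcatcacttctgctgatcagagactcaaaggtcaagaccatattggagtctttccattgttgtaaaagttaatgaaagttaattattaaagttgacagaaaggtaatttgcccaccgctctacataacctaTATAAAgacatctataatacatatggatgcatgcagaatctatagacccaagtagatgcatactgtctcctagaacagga
Slc8a1: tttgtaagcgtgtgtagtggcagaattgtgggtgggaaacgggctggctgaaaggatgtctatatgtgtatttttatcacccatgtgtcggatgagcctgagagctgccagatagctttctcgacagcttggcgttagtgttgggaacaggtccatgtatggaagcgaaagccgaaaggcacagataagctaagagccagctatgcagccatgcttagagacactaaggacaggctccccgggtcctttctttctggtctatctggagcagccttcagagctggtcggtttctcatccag
The *Slc38a5* window holds 1 CACGTG, 30 bases before the start, and the *Slc26a3* window holds 1 TATAAA, also 30 bases before the start. The *Slc8a1* window holds neither. Over the 20 of 27 called members with an entry, 4 of 27 windows hold TATAAA, beside 13.6% of all 32851 windows, and 1 holds CACGTG, beside 7.15%. A CArG box, the site bound by serum response factor, was found in 0 of 6 windows of 5 muscle members, beside 1.63% of all windows. TGTTTA, a forkhead core, occurred in 1 of 4 windows of the 3 clear cell members (that of *Slc43a2*), beside 13.4%. AGGAAG, an ETS core, occurred in 3 of 8 windows of 6 caput members (*Slc7a8*, *Slc16a11* and *Slc25a47*), beside 35.4%. All these were searched on both strands, and the windows say nothing about sites elsewhere.

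**Figure D2:**
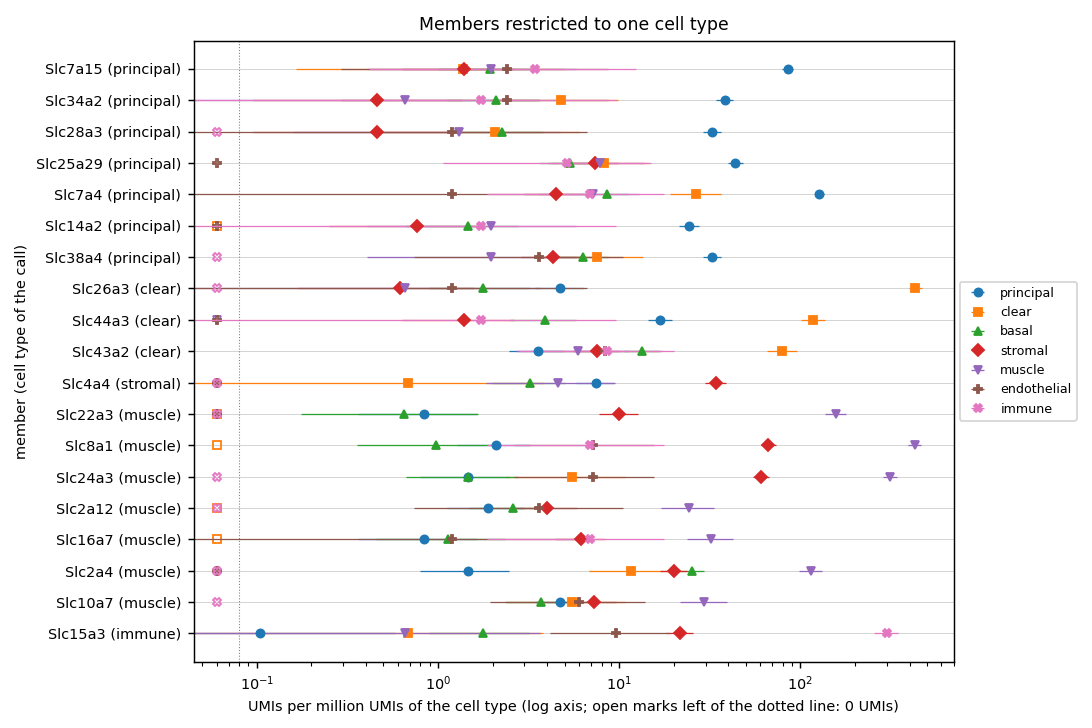
Level of each of the 19 members called for a cell type (rows, with the type) in each of the 7 cell types (colored marks), in UMIs per 1000000 UMIs on a log axis, with 95% Poisson intervals as lines; marks left of the dotted line are at 0 UMIs. The clear cell level of *Slc26a3*, 431, lies farthest from its other types, which sit at 4.70 or less.

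*Slc26a3*, an apical chloride-bicarbonate exchanger, had the widest gap of these calls. It stood at 431 UPM [398, 466] in clear cells (630 UMIs), 4.70 in principal, 1.78 in basal, 0.617 in stromal, 0.656 in muscle and 1.20 in endothelial cells, and 0 UMIs in immune cells. This was at least 83.6-fold over every other type, and at least 38.5-fold without the vas deferens library (53.6-fold with the deposited size factors). By library, clear cells of the caput read 451, those of the corpus 508, those of the cauda 449 and those of the vas deferens 86.8 (38 cells, 13 UMIs), so the vas deferens clear cells stood below the other 3, which were close together. All 3 clear populations carried it, with 449 UPM in the Amylin-positive clear cells, 410 in the main clear cells and 825 in the low-UMI clear cells. After each cell was thinned to 1000 UMIs, 87 of 238 clear cells had a UMI (36.6%), against 8 of 1894 principal cells (0.422%).

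*Slc43a2*, a facilitative carrier of large neutral amino acids, was called for clear cells at 79.4 UPM, with basal cells next at 13.4 (5.91-fold [4.42, 7.93]). The call was lost with the deposited size factors (3.37-fold). *Slc44a3*, of the choline transporter-like family, was at 117 in clear cells and 16.8 in principal cells (6.95-fold [5.57, 8.67]). Within clear cells it was higher in the proximal duct, at 214 in the caput and 148 in the corpus, than in the cauda (65.6) and vas deferens (46.7, 7 UMIs). Its principal cell level ran otherwise, at 3.48, 47.2, 31.0 and 7.26 from caput to vas deferens, and its clear cell lead was 4.82-fold without the caput and 11.0-fold without the cauda library. *Slc17a5*, the lysosomal sialic acid exporter, was also highest in clear cells at 65.0 UPM, but 2.88-fold over principal cells and so below the call.

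The 7 muscle calls included the carriers that move calcium out of the cell. *Slc8a1*, the sodium-calcium exchanger NCX1, stood at 426 UPM [394, 460] in muscle and 66.4 in stromal cells (6.42-fold [5.67, 7.26]), and at 7.18 or less in the other 5 types. *Slc24a3*, a potassium-dependent sodium-calcium exchanger, followed with 311 in muscle and 60.9 in stromal cells (5.12-fold [4.47, 5.86]). *Slc22a3*, the organic cation transporter OCT3, was at 157 in muscle and 10.0 in stromal cells (15.6-fold [11.8, 20.9]). Muscle cells came almost wholly from 2 libraries, 437 from the vas deferens and 58 from the cauda, and the order of levels was not the same in these. *Slc8a1* read 178 in cauda and 478 in vas deferens muscle, *Slc22a3* 51.3 and 178, but *Slc24a3* 540 and 268.

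*Slc2a4*, the insulin-responsive glucose transporter GLUT4, was at 114 UPM in muscle and 25.1 in basal cells (4.55-fold [3.64, 5.69]), with like levels in cauda (110) and vas deferens (115) muscle. The other muscle calls were low. *Slc16a7*, the monocarboxylate transporter MCT2, was at 32.1 UPM, *Slc10a7* at 29.5 and *Slc2a12*, the sugar transporter GLUT12, at 24.3, from 26 to 42 UMIs in vas deferens and 6 to 10 in cauda muscle. The myofibroblasts and the low-UMI stromal cells carried part of the same set: *Slc8a1* stood at 81.6 and 142 UPM in them and *Slc24a3* at 79.7 and 185, against 895 and 410 in the first muscle population and 310 and 287 in the *Gfra4* muscle population.

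Muscle was also highest for members short of the call. *Slc12a2*, the sodium-potassium-chloride cotransporter NKCC1, read 145 UPM in muscle and 58.4 in stromal cells. *Slc4a7*, a sodium-bicarbonate cotransporter, was at 175 in muscle and 80.2 in endothelial cells, and *Slc4a3*, a chloride-bicarbonate exchanger, at 100 in muscle and 38.4 in stromal cells. In 10 of 19 calls the gene was also called without the vas deferens library. *Slc8a1* (2.90-fold), *Slc10a7*, *Slc16a7*, *Slc22a3* (4.23-fold, but under 20 UMIs) and *Slc2a12* were the muscle genes that were not. *Slc10a7* and *Slc2a12* were also not called without the corpus or without the cauda library.

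The 7 principal calls did not all share a solute, but several were amino acid carriers or relatives of them. *Slc7a15* and *Slc7a4*, relatives of amino acid carriers, stood at 85.0 and 127 UPM in principal cells. *Slc38a4*, a system A amino acid transporter, was at 32.5 with clear cells next at 7.53 (4.32-fold [2.38, 8.75]). *Slc25a29*, a mitochondrial carrier of basic amino acids, was at 43.8 with clear cells next at 8.21. *Slc34a2*, a sodium-phosphate cotransporter, was at 38.2, *Slc28a3*, a concentrative nucleoside transporter, at 32.6 and *Slc14a2*, the urea transporter UT-A, at 24.4. For these last 3 the nearest group was the immune cells at the floor of 3 UMIs, which is 5.15 UPM. Of the 7, 6 were not called when levels were averaged over cells or counts were divided by the deposited size factors, *Slc7a15* being the one that was. The call was also lost without the vas deferens library for *Slc14a2* (0.889-fold), *Slc28a3* (1.02-fold) and *Slc34a2*. For *Slc14a2* and *Slc28a3* these are ratios to immune cells at the floor of 3 UMIs, not to a type with a higher count. It was lost without the corpus library for *Slc14a2*, *Slc25a29* and *Slc38a4*, and without the cauda library for *Slc38a4*, *Slc7a4* (2.95-fold) and *Slc7a15* (1.62-fold).

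*Slc15a3*, a lysosomal peptide and histidine transporter, was called for immune cells at 299 UPM [256, 347], with stromal cells next at 21.6 (13.9-fold [11.0, 17.4]). It was highest in immune cells in each library, at 294 (caput, 9 UMIs), 348 (corpus), 340 (cauda) and 271 (vas deferens). Within them it read 417 in macrophages, 395 in *Trem2* macrophages, 139 in dendritic cells and 27.2 in T cells, and the basal cells annotated with macrophages held 257. *Slc4a4*, the electrogenic sodium-bicarbonate cotransporter NBCe1, was the stromal call, at 34.1 UPM over 7.42 in principal cells (4.59-fold [3.50, 6.08]). In the caput, though, principal cells read 33.7 and stromal cells 25.1, and the call was lost without the corpus, cauda or vas deferens library.

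In principal cells, members were compared between libraries under the same rule. The call held for 10 of 168 members (5.95%), beside 4.46% of all genes, and with a 2-fold limit for 28 (16.7%), beside 15.1%, and with an 8-fold limit for 7 (4.17%), beside 2.08%. Of these, 8 were highest in the caput (background 2.01%), 2 in the cauda (0.37%), 0 in the corpus (0.866%) and 0 in the vas deferens (1.21%). *Slc7a15* and *Slc4a4* carried a call of both kinds. Called or not, the highest library was the corpus for 67 members (39.9%, beside 34.1% of all genes), the caput for 40 (23.8%, beside 22.4%), the vas deferens for 36 (21.4%, beside 32.6%) and the cauda for 25 (14.9%, beside 10.9%). The summed level of all members fell along the duct, from 8545 UPM in the caput through 6624 and 5767 to 4425 in the vas deferens. *Slc38a5* alone made 33.1% of the caput sum, and without it the caput read 5717 [5605, 5831], below the corpus.

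**Figure D3:**
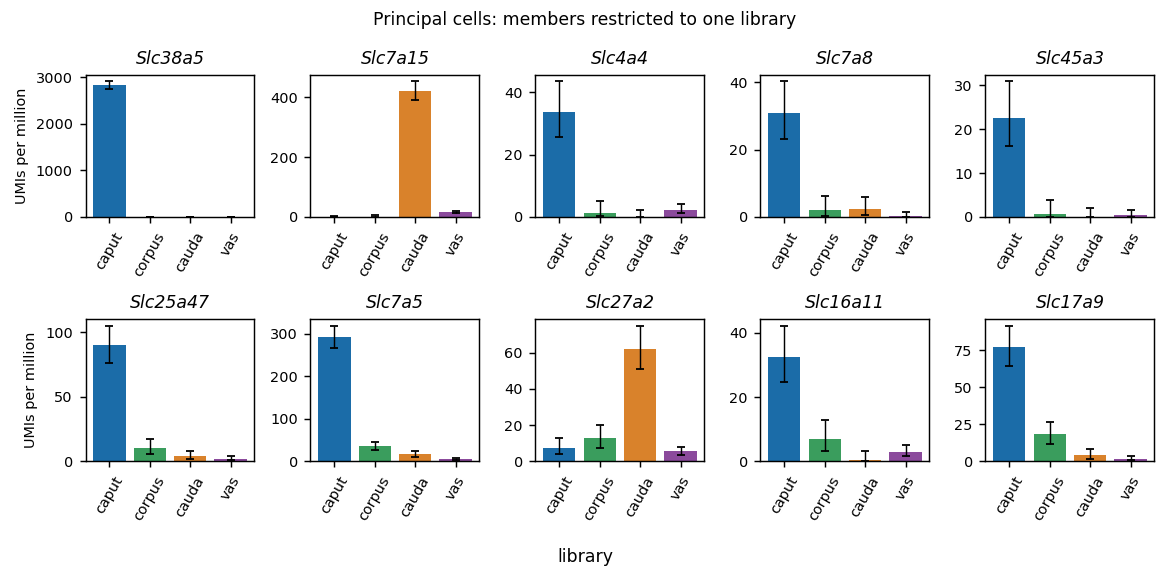
Level of the 10 members called for 1 library in principal cells, in UMIs per 1000000 UMIs (linear axes from 0, scaled per gene), by library; lines are 95% Poisson intervals. *Slc38a5* reaches 2827 in the caput with 0 UMIs in the other 3 libraries, and *Slc7a15* reaches 421 in the cauda.

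*Slc38a5*, the system N carrier SNAT5 that moves glutamine, asparagine, serine and histidine with sodium in exchange for protons, was the most abundant member of caput principal cells. It had 4873 UMIs there, 2827 UPM [2749, 2908], and 0 UMIs in corpus, cauda and vas deferens principal cells. This was at least 1337-fold over the corpus at its floor. After thinning, 214 of 342 caput principal cells had a UMI (62.6%), against 0 of 346 corpus cells, where 3 cells would be 0.867%. It rose over the caput populations, from 2099 UPM in principal 1, the initial segment, through 3343 in principal 2 to 4925 in principal 3. The median UMIs per cell fell in the same order, from 1613 through 924 to 565, and the part of depth in the rise was not tested.

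Principal 4 and principal 5 held cells of both caput and corpus, and *Slc38a5* split them by library. In principal 4 the 19 caput cells had 38 UMIs (1646 UPM) and the 55 corpus cells 0. In principal 5 the 67 caput cells had 121 UMIs (675 UPM) and the 172 corpus cells 0, where the floor was 9.83 UPM. The counting intervals of these summed levels thus did not overlap between the 2 libraries in principal 4 or in principal 5. How many of the caput cells there carried the UMIs is not given here. For comparison, *Slc7a5* in principal 5 read 72.5 in caput and 55.7 in corpus cells, and *Slc16a11* 44.6 (8 UMIs) and 9.83 (3 UMIs). The submitters took an estimate of ambient RNA, made for each library, out of the counts, and its part in the zeros was not tested.

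Outside principal cells *Slc38a5* was also a caput gene. In basal cells its caput level was 789 UPM (1114 UMIs), its corpus level 13.8, its cauda level 1.05 (1 UMI) and its vas deferens level 0. It was 1 of 3 members called for a library in basal cells, beside 1.15% of genes, and the 1 member called in clear cells (82.7 UPM in the caput), beside 0.514%. Caput endothelial cells held 353 UPM, with 50 UMIs in 4 of 50 cells. In the corpus 4 of 39 endothelial cells held 6 UMIs, and the 144 of the vas deferens held 0. The paper lists *Slc38a5* among the venous signature genes of its endothelial cells. Stromal cells differed, with 114, 82.3, 18.7 and 6.38 from caput to vas deferens. In the corpus the stromal reading lay in the fibroblasts (463 UPM, 14 of 36 cells with a UMI), the low-UMI stromal cells (78.1) and the myofibroblasts (59.3).

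The share of the caput principal level found in other caput cells was compared with that of 54 other genes called for the caput among the libraries of principal cells, with at least 500 UMIs there. The 54 were not chosen to be low in other cell types, and their highest share was 135% in basal and 207% in stromal cells. In basal cells *Slc38a5* stood at 27.9% [26.1, 29.8] of the principal level, where the 54 genes had a median of 1.48% and 3 of them stood as high. In stromal cells it was at 4.02% (median 1.11%, 13 as high), in clear cells at 2.93% (1.24%, 14 as high) and in endothelial cells at 12.5% (2.28%, 6 as high). Without thinning, 106 of 189 caput cells of the main basal population had a UMI of it and 34 of 94 low-UMI basal cells, the latter at 1752 UPM. What part free RNA or mixed droplets had in these readings was not tested.

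**Figure D4:**
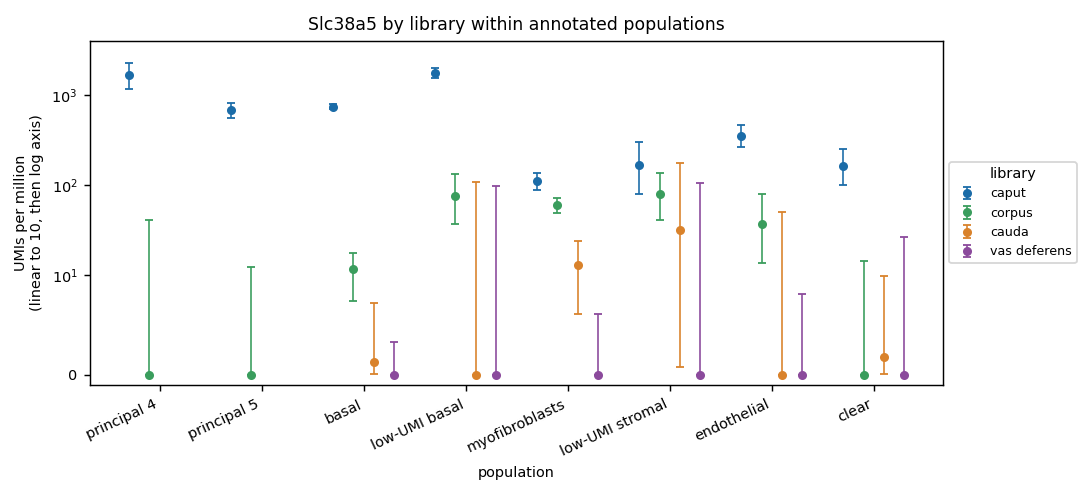
Level of *Slc38a5* in UMIs per 1000000 UMIs (axis linear to 10, then log) for each library (colors) within 8 annotated populations that hold cells of more than 1 library; lines are 95% Poisson intervals. Caput cells lie above cells of the other libraries in each population, with overlapping intervals in the low-UMI stromal cells, while corpus cells of principal 4 and principal 5 sit at 0.

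Further amino acid carriers were high in the caput. *Slc7a5*, the light chain LAT1 of the large neutral amino acid exchanger, read 292, 35.2, 16.7 and 6.19 UPM from caput to vas deferens (8.30-fold over the corpus [6.20, 11.3]). Among populations it was highest in principal 1 at 402 and lower in principal 2 (308) and principal 3 (132). Its partner *Slc3a2*, the heavy chain 4F2hc, varied less, with 461, 319, 257 and 229 in the same order. *Slc7a8*, the related light chain LAT2, was low in principal cells but also called for the caput, at 30.8 against 2.30 or less. It was highest in basal cells (90.7 UPM), and in stromal cells it was called for the cauda, at 138 UPM against 14.3 to 20.3 elsewhere. This was 1 of 2 stromal calls, beside 1.33% of genes, and the other was the nucleobase carrier *Slc43a3* in the vas deferens (72.9 UPM).

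Along the duct the amino acid carriers as a group read 4691, 1433, 1657 and 518 UPM in principal cells, and without *Slc38a5* the caput read 1864. *Slc1a1*, the glutamate and aspartate transporter EAAC1, went from 462 in the caput through 121 and 218 to 5.55 in the vas deferens. *Slc7a4* and *Slc38a4* had their high levels in the middle of the duct. *Slc7a4* read 67.9, 290, 294 and 38.2, and *Slc38a4* 3.48, 77.5, 94.8 and 6.41. *Slc6a6*, the taurine transporter, had 0 UMIs in caput principal cells and read 56.4, 72.4 and 9.40 in corpus, cauda and vas deferens. Corpus and cauda levels of *Slc7a4* and *Slc38a4* did not differ beyond counting error.

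*Slc7a15*, a relative of the heteromeric amino acid transporters, was the clearest cauda member. It had 0 UMIs in caput, 2 in corpus, 733 in cauda (421 UPM [391, 453]) and 78 in vas deferens principal cells (16.7 UPM), so the cauda stood 25.3-fold above the vas deferens (12.1-fold when levels were averaged over cells and 10.2-fold with the deposited size factors). Among populations it was at 356 UPM in principal 8, 204 in principal 9, 683 in principal 10 and 450 in principal 11, and at 20.2 or less in all others. Populations that cauda and corpus cells share split by library. In principal 6 the 13 cauda cells had 5 UMIs (301 UPM) and the 327 corpus cells 0, and in principal 7 the 18 cauda cells had 11 UMIs (314 UPM) and the 346 corpus cells 2 (3.34 UPM). The corpus cells of principal 8 had 0 UMIs, but with 22 cells their floor was 278 UPM. In principal 11, which held cells of cauda and vas deferens, 141 cauda cells read 550 and 100 vas deferens cells 217. In principal 9 the intervals overlapped, at 181 [133, 240] in 100 cauda cells and 250 [172, 352] in 26 vas deferens cells.

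*Slc27a2*, a very long-chain acyl-CoA synthetase and fatty acid transport protein, was the other cauda call. It read 7.54, 12.7, 62.1 and 5.55 UPM from caput to vas deferens (4.89-fold over the corpus [2.95, 8.57]) and was highest in principal 11 at 93.9 and principal 10 at 85.0. In principal 11 the cauda cells read 118 and the vas deferens cells 37.7 (4 UMIs), with overlapping intervals. *Slc27a4*, of the same family, showed no such course, at 33.1, 37.4, 41.4 and 41.2. *Slc16a1*, the lactate and pyruvate carrier MCT1, was also highest in the cauda, at 55.1, 137, 229 and 46.1, with principal 10 at 442. *Slc52a3*, a riboflavin transporter, had 0 UMIs in the caput and read 55.0, 87.4 and 3.84 in corpus, cauda and vas deferens.

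The remaining caput calls were lower. *Slc25a47*, a mitochondrial carrier, read 89.9 UPM in the caput against 10.6, 4.02 and 2.14 in corpus, cauda and vas deferens. *Slc17a9*, the vesicular nucleotide transporter, read 77.2 against 18.3, 4.02 and 1.92. *Slc4a4* read 33.7 against 2.35 or less, *Slc16a11* 32.5 against 7.05 or less, and *Slc45a3* 22.6 against 0.705 or less. *Slc16a11*, *Slc17a9* and *Slc27a2* did not reach an 8-fold lead. The call was lost for *Slc17a9* (3.73-fold) and *Slc27a2* (3.46-fold) when levels were averaged over cells, for *Slc17a9* (3.47-fold) with the deposited size factors, and for *Slc16a11* in cells with at least 1000 UMIs. With the size factors the leads of *Slc25a47* (8.51-fold), *Slc45a3* (10.7-fold) and *Slc4a4* (14.3-fold) were 4.10-fold, 4.91-fold and 8.37-fold.

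*Slc25a47* and *Slc25a29* lie head to head on chromosome 12 in GENCODE M21, *Slc25a29* at 108825873 to 108835883 on the minus strand and *Slc25a47* at 108836046 to 108856815 on the plus strand, with 162 bases between them. Their courses in principal cells differed. *Slc25a29* read 28.4, 67.0, 65.0 and 34.6 UPM from caput to vas deferens, lowest where *Slc25a47* was highest.

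Several members stood high in the corpus or the vas deferens without a call. *Slc22a5*, the carnitine transporter OCTN2, read 6.96, 90.9, 70.7 and 7.90, with principal 6 at 211, and its close relative *Slc22a21* read 2.90, 11.3, 39.1 and 27.6. Reads that fit more than 1 place were dropped in the counting, which can lower the counts of such paralogs. *Slc34a2* read 35.4, 65.5, 13.2 and 40.2.

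*Slc39a8*, the zinc and manganese importer ZIP8, had 2 separate ranges. It read 15.1, 122, 1.15 and 261 UPM from caput to vas deferens. Principal 4 to principal 7 held 63.7 to 178 UPM, principal 8 to principal 10 held 5.09 or less, and principal 12 to principal 15 held 244 to 303. In principal 11 the libraries differed, with 0 UMIs in 141 cauda cells (floor 11.8 UPM) and 141 UPM [79.0, 233] in 100 vas deferens cells. *Slc28a3* read 16.8, 0.705, 17.8 and 53.6, *Slc2a8*, an intracellular glucose transporter, 15.7, 23.3, 19.5 and 84.1, and *Slc14a2* 5.22, 24.0, 5.75 and 38.4. *Slc23a1*, an ascorbate transporter, had 0 UMIs in the caput and read 0.705, 23.0 and 23.7 in corpus, cauda and vas deferens.

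**Figure D5:**
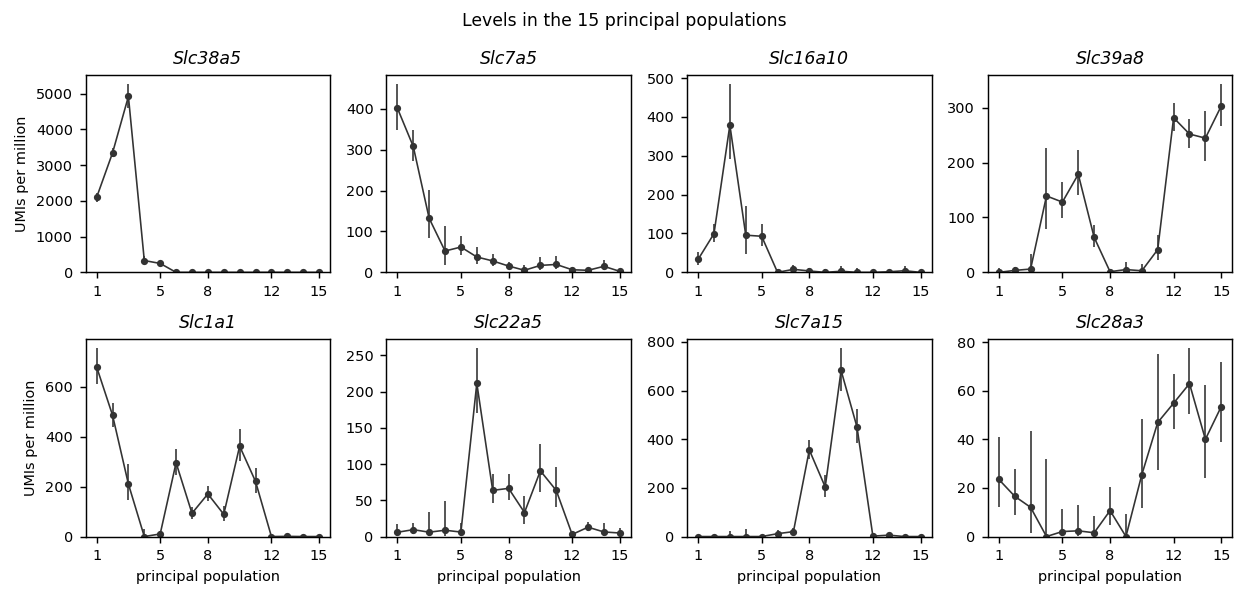
Levels of 8 members in the 15 principal populations, ordered from the initial segment (1) to the vas deferens (15), in UMIs per 1000000 UMIs on linear axes from 0 scaled per gene; lines on the points are 95% Poisson intervals. *Slc38a5* peaks in principal 3 at 4925, *Slc22a5* in principal 6 at 211 and *Slc7a15* in principal 10 at 683, while *Slc39a8* is high in 4 to 7 and again from 12.

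The same 4-fold call over the 15 principal populations held for 0 members, beside 0.0993% of genes, and over all 34 populations for 0, beside 0.37%. The nearest to a call was *Slc16a10*, the aromatic amino acid carrier TAT1, at 379 UPM in principal 3, 3.81-fold over principal 2 (99.5). With a 2-fold limit 6 members were called for a principal population, beside 2.08% of genes. *Slc22a5*, *Slc44a4* and *Slc45a4* were among those called for principal 6, and *Slc16a10* for principal 3.

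*Slc25a4*, the adenine nucleotide translocase ANT1 that exchanges ATP and ADP across the inner mitochondrial membrane, read 1441 UPM in muscle, 671 in stromal, 520 in clear and 137 in principal cells. Its relative *Slc25a5* (ANT2) read 382, 306, 677 and 228 in the same order, so that *Slc25a4* had more UMIs than *Slc25a5* in muscle and stromal cells and fewer in clear, basal, principal, endothelial and immune cells. *Slc25a3*, the mitochondrial phosphate carrier, was the member with the most UMIs (17851) and was highest in stromal cells at 1223.

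Among glucose transporters, *Slc2a1* (GLUT1) was highest in basal cells at 409 UPM (2.49-fold over endothelial cells [2.10, 2.98]), and at 1256 in the low-UMI basal cells. *Slc2a4* was highest in muscle, and *Slc2a3* (GLUT3) and *Slc2a8* in principal cells at 41.1 and 51.0. *Slc2a3* was highest in the cauda (73.6) and *Slc2a8* in the vas deferens (84.1). Of the monocarboxylate carriers, *Slc16a1* was highest in principal cells (94.6), and *Slc16a3* (MCT4) and *Slc16a7* in muscle (90.5 and 32.1). *Slc16a3* was next highest in basal cells (57.7) and stood at 3.03 in principal cells.

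Endothelial cells had no called member but were the highest type for 20 (11.9%, beside 12.4% of all genes). These included 4 of 24 metal carriers, 3 of 13 vitamin, choline and heme carriers and 2 of 4 chloride cotransporters. The nucleoside carriers gave 1 of 7, and the rest lay in other groups. *Slc30a1*, the zinc exporter ZnT1, read 165 UPM there and 58.2 in clear cells, *Slc39a10*, a zinc importer, 108 and at most 33.5 elsewhere, and *Slc43a3* 156 with clear cells at 55.4. *Slc10a6*, a sulfated steroid carrier, was at 57.5 in endothelial and 49.8 in stromal cells, which did not differ beyond counting error (1.15-fold [0.834, 1.57]), and at 3.44 or less elsewhere.

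The fixed list of 8 accessory proteins read as follows. *Bsg* (basigin), the chaperone of MCT1 and MCT4, was highest in clear cells at 987 UPM and read 251, 128, 98.3 and 420 in principal cells from caput to vas deferens. *Emb* (embigin), the partner of MCT2, was highest in principal cells at 688 and read 177, 260, 760 and 978 along the duct. *Tmem27* (collectrin), which brings amino acid carriers to the apical membrane, was at 187 in cauda principal cells against 4.06 or less in the other libraries. The scaffold gene *Slc9a3r1* read 36.0, 185, 390 and 158 along the duct, and *Slc9a3r2* was highest in endothelial cells at 206. The mitochondrial pyruvate carrier genes *Mpc1* and *Mpc2* were highest in vas deferens principal cells among the libraries, at 190 and 470, and *Slc51b* had at most 0.580 UPM in any of the 4.

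Levels of some called members may include reads of a neighbor. GENCODE M21 has another gene within 2000 bases upstream to 1000 downstream of the 3′ end, on the other strand, for *Slc7a4*, *Slc7a5*, *Slc7a15*, *Slc8a1*, *Slc15a3*, *Slc16a11*, *Slc22a3*, *Slc2a4* and *Slc2a12*, and on the same strand for *Slc45a3*. Use of strand in the counting is not given in the sources used here.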

How the data were processed

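Libraries of caput, corpus, cauda and vas deferens were analysed from the deposited matrix of UMI counts. The authors aligned reads to mm10 with HISAT2 2.0.4, counted UMIs at 3′ ends of RefSeq genes with ESAT (reads with several matches ignored), limited total UMIs per cell and removed ambient RNA with a modified SoupX. The deposited size factor of each cell, a score made by the authors with scran, entered 1 alternative only. Cell types and populations follow the submitters' annotation, with endothelial cells taken apart from immune cells. Principal populations were numbered by matching cell counts to the paper's own list of populations, so most numbers are not those of the deposited labels. Principal 1, for example, is labeled PC15 and principal 3 is labeled PC10. The cells named Amylin-positive clear cells here carry the deposited label Narrow, and the myofibroblasts the label Connective.

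Levels, exact intervals (95%; Poisson, conditional binomial for ratios, Clopper-Pearson for shares) and calls were computed with Python 3.11.15 and scipy 1.17.1. With 1 library per region, regions were not compared by a test. Thinning to 1000 UMIs left out 2062 of 3956 principal and 110 of 348 clear cells; without it, 57.5% of clear and 0.834% of principal cells had a UMI of *Slc26a3*, and 51.1% of caput principal cells one of *Slc38a5*. Doublets marked against simulated pairs (16, 43, 21 and 98 cells, at a set rate) were kept. In simulated counts for cell types the call recovered 65 of 75 genes made 6-fold higher and called 0 of 10883 unchanged genes. The simulation held Poisson counting error only, with the same rate in each type for unchanged genes. It had no variation between cells or libraries and no ambient RNA, so it gives no rate of false calls for these data.

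The members, lists and rules were chosen with earlier results of these data known. Genes named are all called members, the 3 highest of each solute group, those next to the limit of 100 UMIs and the accessory proteins. Outside that rule, *Slc1a1*, *Slc2a3*, *Slc2a8*, *Slc6a6*, *Slc16a10*, *Slc22a21*, *Slc23a1*, *Slc39a10*, *Slc44a4*, *Slc45a4* and *Slc52a3*, the motifs and the 54 comparison genes were chosen after values were seen. Results for some members are not reported here.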

Additional observations from a re-analysis of the deposited data

Results flagged for a closer look

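In 2 members the order of principal and stromal cells turned around between 2 libraries by 4-fold or more each way. The share of all genes that do so is not given here, so the count does not set the members apart. With 1 library per region, these differences were not tested.

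*Slc16a10* was 6.87-fold higher in principal than in stromal cells of the caput (107 and 15.5 UPM), and 86.5-fold higher in stromal cells of the cauda (149 UPM, against 1.72 UPM from 3 UMIs in principal cells). *Slc38a5* was 24.9-fold higher in principal than in stromal cells of the caput (2827 and 114 UPM), and at least 38.9-fold higher in stromal cells of the corpus (82.3 UPM, against 0 UMIs in principal cells).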

How the results depend on the processing

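The count of members restricted to a cell type moved from 19 to 61 with a 2-fold limit (36.3%, beside 24.3% of all genes) and to 4 with an 8-fold limit (2.38%, beside 4.87%). The count restricted to a library in principal cells moved from 10 to 28 with a 2-fold limit (16.7%, beside 15.1%). Among members with at least 200 UMIs it was 6 (4.48%, beside 4.46% of genes with at least 100 UMIs), so the shares were alike. The count restricted to a principal population moved from 0 to 6 with a 2-fold limit, beside 2.08% of genes. Solute groups highest in principal cells went from 2 to 4, both when genes above 1% of the UMIs of any type were left out of the denominator and without the vas deferens library. Without the vas deferens library the ratio of *Slc14a2* fell to 0.889, but this is a ratio to immune cells at the floor of 3 UMIs. Principal cells were its highest type in 4 of 4 libraries. The other alternatives left these counts within 1.5 times, but not always with the same genes. Of the 19 type calls, 12 were shared when levels were averaged over cells, 11 with the deposited size factors, 19 without the caput, 13 without the corpus, 13 without the cauda and 10 without the vas deferens library. Ratios of called members stayed within their counting intervals in 144 of 171 cases for types and 47 of 50 for libraries, and shares of cells in 23 of 76. No paired analysis was possible because each region has 1 library and no test was run. The depth of the smaller groups limits what can be seen: 3 UMIs are 5.15 UPM in immune and 3.59 in endothelial cells, so low members cannot be called there.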
